A study of Mus musculus with 6 samples.

Results

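Expression of 9 genes that write, maintain or remove DNA methylation, or that encode the G9a-type histone methyltransferases, was examined in the brain of newborn mice 4 h after ethanol: Dnmt1, Dnmt3a, Dnmt3b, Tet1, Tet2, Tet3, Uhrf1, Ehmt1 and Ehmt2. They were chosen by symbol from the 19938 genes that the platform annotation paired with a probeset of their own. All 9 were on the array, through 12 probesets, with 3 for Tet1, 2 for Tet3 and 1 for each of the others, and all 12 passed the filter on dim values. The mice were C57BL/6J males at postnatal day 7, given 2 subcutaneous injections 2 h apart. Ethanol pups received 2.5 g/kg per injection as a 20% solution in saline, and control pups received the 0.15 M saline alone. Each array held RNA of the whole brain pooled from 3 pups of different litters, which gave 2 ethanol arrays (numbered 2 and 4 in the labels) and 4 saline arrays (1, 3, 5 and 6) from 18 pups in all. A pooled array averages its pups, so the spread between arrays is that between pools. In RNA of a whole brain, fewer cells of a type and less RNA per cell cannot be told apart.

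DNA methyltransferases add a methyl group to cytosine, mostly at CpG. Dnmt3a and Dnmt3b set new marks, while Dnmt1 copies existing ones onto the new strand after replication, guided by Uhrf1. The Tet enzymes oxidise methylcytosine, the first step of its removal, and the oxidised base is abundant in neurons. Ehmt2 (G9a) and its partner Ehmt1 (GLP) form the complex that places mono- and dimethyl marks on lysine H3K9, a mark of silenced genes. G9a has been studied in mouse pups given ethanol at this age, in which H3K9 dimethylation was reported to be higher. An array measures transcripts and not protein, enzyme activity or the marks themselves.

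Levels are the deposited values, taken as log2 intensities, and a change is the ethanol mean minus the saline mean on that scale. Errors of levels are SDs between arrays, and those of changes are standard errors (SE) of a limma fit over all 14954 tested genes with Benjamini-Hochberg adjustment and a threshold of 0.05. With 2 and 4 arrays, their number sets the precision. Levels of different probesets are not comparable with each other. Neuronal markers were high on every array, with a mean over 11 genes between 11.5 and 11.7. None of the 11 passed in limma, and their changes were above 0 for 5 and below for 6. At an unadjusted p under 0.05, 2 were lower, with and without saline array 3. Of all tested genes 8.45% were lower at that level over all arrays, and 13.8% reached it in either direction without saline array 3. Saline array 3 stood apart from the others, with the lowest saline value on 51.9% of the 16342 probesets tested and a median deviation of -0.056 from the mean of the other saline arrays. The comparison was planned with and without that array. The changes of the members, and of the genes named from lists, are therefore also given without it. Of 8 listed pituitary markers 5 were tested and none passed in limma. Their mean level was 5.96 to 6.6 on the ethanol arrays and 6.79 to 6.95 on the saline arrays, and 4 of them were lower at an unadjusted p under 0.05 (2 without saline array 3), where 8.45% of tested genes were lower at that level. Of those 4, Gh and Cga had the largest changes, -1.5 and -1.2, or -1.7 and -1.3 without saline array 3. The ethanol arrays differed, with 7.654 and 5.717 for Gh and 7.194 and 6.055 for Cga on arrays 2 and 4. The fifth marker, Lhb, near background, had a change of -0.022, or 0.027 without saline array 3. The part of pituitary tissue in the values below was not tested.

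No member passed the test. Over all tested genes 12 passed in limma, or 0.0802%, and among the 9 members 0 passed. The member with the largest change was Tet1, which was 9.66% higher with ethanol. Ehmt2 was 7.15% lower, Uhrf1 7.57% lower and Dnmt3b 6.54% lower, while Dnmt1, Dnmt3a and Ehmt1 had changes of -1.13%, 0.797% and -0.831%. An unadjusted p under 0.05 was reached by 1 member, Tet1, as higher and only on the probeset that represents it. Of all tested genes 3.85% reached it as higher and 8.45% as lower, 12.3% in all. Both ethanol arrays lay above all saline arrays for 1 member, Tet1, where this held for 7.68% of tested genes, and below them for 2, Dnmt3b and Ehmt2, where it held for 15.0% (22.6% in all). Of the 9 changes 3 were above 0, where 41.4% of tested genes were. The median change of the members was -0.016, and that of all tested genes -0.019. These shares among the members are near those of the array as a whole or rest on 1 or 2 genes.

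The 95% intervals of the limma fit give a range for the change of each gene's representing probeset, and were not adjusted for the number of genes. For Dnmt1 the interval ran from -10.6% to 9.38%, for Dnmt3a from -9.45% to 12.2%, for Ehmt1 from -11.6% to 11.2% and for Tet2 from -11.1% to 7.34%. The widest was that of Tet3, from -8.51% to 22.1%. For Ehmt2 the interval was -15.4% to 1.94%. Over the 9 members the bounds lay between -17.3% (Uhrf1) and 22.1% (Tet3), so that with this number of arrays differences of a few percent were not detectable.

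**Figure D1:**
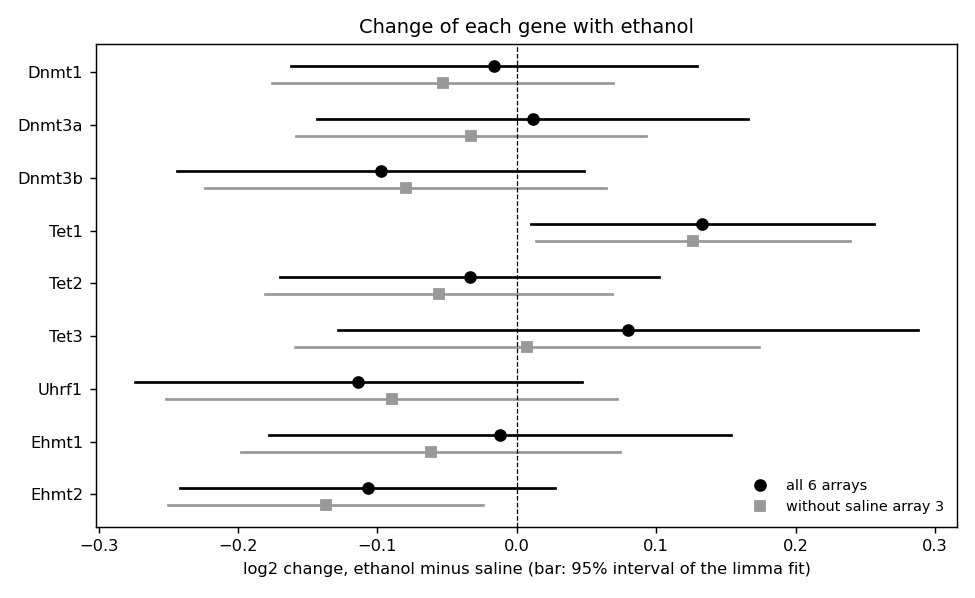
Log2 change with ethanol (x axis) for each of the 9 genes (y axis), with the 95% interval of the limma fit, over all 6 arrays (black circles) and without saline array 3 (grey squares). Tet1 is the member whose interval lies above 0 in both fits, and that of Ehmt2 lies below 0 only in the fit without saline array 3.

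Dnmt1, the maintenance methyltransferase, had levels of 9.83, 9.64, 9.75 and 9.80 on saline arrays 1, 3, 5 and 6, and of 9.70 and 9.77 on ethanol arrays 2 and 4. The ethanol values lay inside the saline range, and saline array 3 was the lowest of the 6. The means were 9.75 ± 0.081 (SD, n = 4) and 9.74 ± 0.049 (SD, n = 2), and the log2 change was -0.016 ± 0.067 (SE, limma adjusted p = 0.949). Without saline array 3 it was -0.053 ± 0.054 (limma adjusted p = 0.698).

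Uhrf1, which binds hemimethylated DNA and brings Dnmt1 to it, was lower with ethanol by 0.11 on the log2 scale, a value that did not pass. Saline arrays 1, 3, 5 and 6 had 6.95, 7.13, 7.17 and 6.99, and ethanol arrays 2 and 4 had 6.99 and 6.91. Saline arrays 3, 5 and 6 lay above both ethanol arrays, saline array 6 close to ethanol array 2, while saline array 1 lay between the ethanol arrays, so the groups overlapped. The change was -0.11 ± 0.074 (SE, limma adjusted p = 0.563), and -0.090 ± 0.072 (0.613) without saline array 3. Among markers of proliferating cells, in which Uhrf1 and Dnmt1 are both known to be high, none of 18 tested genes passed in limma, and 5, all lower, reached an unadjusted p under 0.05, where 8.45% of all tested genes did so as lower. Those 5 were Rrm2, Cdk1, Mcm2, Mcm4 and Pcna, with log2 changes of -0.19, -0.21, -0.19, -0.15 and -0.20. When saline array 3 was left out these were -0.20, -0.25, -0.20, -0.15 and -0.17, all 5 still at an unadjusted p under 0.05. Of the 18 changes, 12 were below 0 and 6 above. Those above included Birc5 (near background), E2f1 and Top2a, at 0.096, 0.055 and 0.041. Without saline array 3 they had 0.085, 0.029 and 0.010. The mean of the list was 8.05 to 8.11 on the ethanol arrays and 8.12 to 8.17 on the saline arrays, and its median change was -0.043. The part of proliferating cells in the values of Uhrf1 was not tested.

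The promoters of Uhrf1 and Dnmt1 are shown because they were the members with an E2F-type element of the replication programme, TTTCGCGC. The element was searched on both strands, as were TTTGGCGC and TTTCCCGC (E2F-type), CACGTG (E-box), GGGCGG (GC box), CCAAT and the palindromic NRF1-type element, which is given by name alone. Sequences are from RefSeq on GRCm38.p6, run from 250 bases before to 50 after a listed start, and are written 5′ to 3′ on the gene's strand, with every match in capitals except those of the NRF1-type element, which are left in lower case. A match on the opposite strand appears as its reverse complement, and adjoining or overlapping matches run together. TTTCGCGC was found in 0.323% of the 32851 promoters in the table and TTTGGCGC in 0.514%. The Uhrf1 window is the second of 2 listed, at chr17:56304063-56304362 on the plus strand. The Dnmt1 window is the third of 3 listed, at chr9:20952574-20952873 on the minus strand, and holds the element on the opposite strand.
Uhrf1: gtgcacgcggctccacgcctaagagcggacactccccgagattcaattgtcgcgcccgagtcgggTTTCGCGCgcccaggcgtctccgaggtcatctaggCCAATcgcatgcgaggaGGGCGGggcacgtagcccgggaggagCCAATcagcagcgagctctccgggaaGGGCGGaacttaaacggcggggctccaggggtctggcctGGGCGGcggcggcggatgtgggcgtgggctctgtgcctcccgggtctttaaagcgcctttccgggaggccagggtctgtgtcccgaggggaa
Dnmt1: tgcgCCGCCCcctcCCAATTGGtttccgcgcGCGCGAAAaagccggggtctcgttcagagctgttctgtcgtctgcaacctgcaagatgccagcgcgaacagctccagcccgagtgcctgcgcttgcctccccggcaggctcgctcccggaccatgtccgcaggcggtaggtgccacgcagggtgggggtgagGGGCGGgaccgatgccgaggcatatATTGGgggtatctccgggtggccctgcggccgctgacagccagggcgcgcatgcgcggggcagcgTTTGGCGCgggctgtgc
The capitals of the Uhrf1 window begin with TTTCGCGC, at position -185 from the start, and go on with 3 GC boxes and 2 CCAAT elements. Counted from the third listed start, the Dnmt1 window holds TTTCGCGC at position -219 and TTTGGCGC at position 34, after that start. An NRF1-type match lies at position 15, an element found in 0.971% of promoters. The other listed starts of Dnmt1, with windows at chr9:20952930-20953229 and chr9:20959839-20960138, lie upstream of this whole window. The Uhrf1 window likewise lies downstream of the other listed start, whose window is chr17:56303087-56303386. The positions thus hold only for the start of the window shown. The matches describe the letters of these windows and are not measured sites. The other Uhrf1 window and the other Dnmt1 windows held no E2F-type match. As a separate description, the levels of Uhrf1 and Dnmt1 had Pearson's r = -0.57 over the 6 arrays, and -0.33 without saline array 3. Whether the matches bear on these levels was not tested.

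Dnmt3a, the main de novo methyltransferase of the postnatal brain, had levels of 9.71, 9.54, 9.71 and 9.74 on saline arrays 1, 3, 5 and 6, and of 9.75 and 9.63 on ethanol arrays 2 and 4. Saline array 3 was the lowest and ethanol array 4 the next, while ethanol array 2 was the highest of the 6, so the groups overlapped. The change was 0.011 ± 0.071 (SE, limma adjusted p = 0.968) and became -0.033 ± 0.056 (0.832) without saline array 3, which turned its sign. The saline SD was 0.090 with saline array 3 and 0.015 without it.

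Dnmt3b, the de novo enzyme best known from the early embryo, lay near background: its mean over the arrays was below 6.21, the level under which 95% of olfactory and vomeronasal receptor genes lay. Saline arrays 1, 3, 5 and 6 had 5.90, 6.02, 5.89 and 6.06, and ethanol arrays 2 and 4 had 5.86 and 5.89. Both ethanol arrays were the lowest of the 6, by a gap of 0.0083, and saline arrays 1 and 5 lay just above them. The change was -0.098 ± 0.067 (SE, limma adjusted p = 0.587), and -0.080 ± 0.064 (0.614) without saline array 3. The separation of the groups was lost when each array was centred on its median or quantile-normalised.

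Tet1, which oxidises methylcytosine and is expressed in neurons, was higher with ethanol on each of its 3 probesets, and on each of them both ethanol arrays lay above all 4 saline arrays. The probeset that represents the gene (10369702) had 10.64, 10.64, 10.67 and 10.68 on saline arrays 1, 3, 5 and 6, and 10.79 on both ethanol arrays. The groups were separated by a gap of 0.11, and its saline SD of 0.019 was lower than that of all but 2.04% of tested genes. The means were 10.66 ± 0.019 (SD, n = 4) and 10.79 ± 0.0054 (SD, n = 2), and the log2 change was 0.13 ± 0.057 (SE, limma adjusted p = 0.366). The unadjusted p in limma was 0.0363. On this probeset saline array 3 lay with the others, and without it the change was 0.13 ± 0.050 (limma adjusted p = 0.309).

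The other Tet1 probesets gave similar differences with a wider spread. Probeset 10369688 had 9.66, 9.46, 9.69 and 9.67 on the saline arrays in the same order, and 9.74 and 9.77 on ethanol arrays 2 and 4. Its change was 0.14 ± 0.073 (SE, limma adjusted p = 0.500 in a fit of all probesets), which became 0.084 ± 0.050 (0.500) without saline array 3, the lowest array. Probeset 10369690 had 10.07, 9.96, 10.10 and 10.16 on the saline arrays and 10.18 and 10.19 on the ethanol arrays. There the gap between the groups was 0.025 and the change 0.11 ± 0.066 (limma adjusted p = 0.539), or 0.077 ± 0.053 (0.563) without saline array 3. Neither probeset reached an unadjusted p under 0.05 in limma. For 10369688 and 10369690 it was 0.0858 and 0.114, or 0.129 and 0.182 without saline array 3. The 3 probesets read the same RNA on the same arrays and are not independent measurements. Over all probesets tested, both ethanol arrays lay above all saline arrays for 7.69%, and 0.0734% passed in limma.

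**Figure D2:**
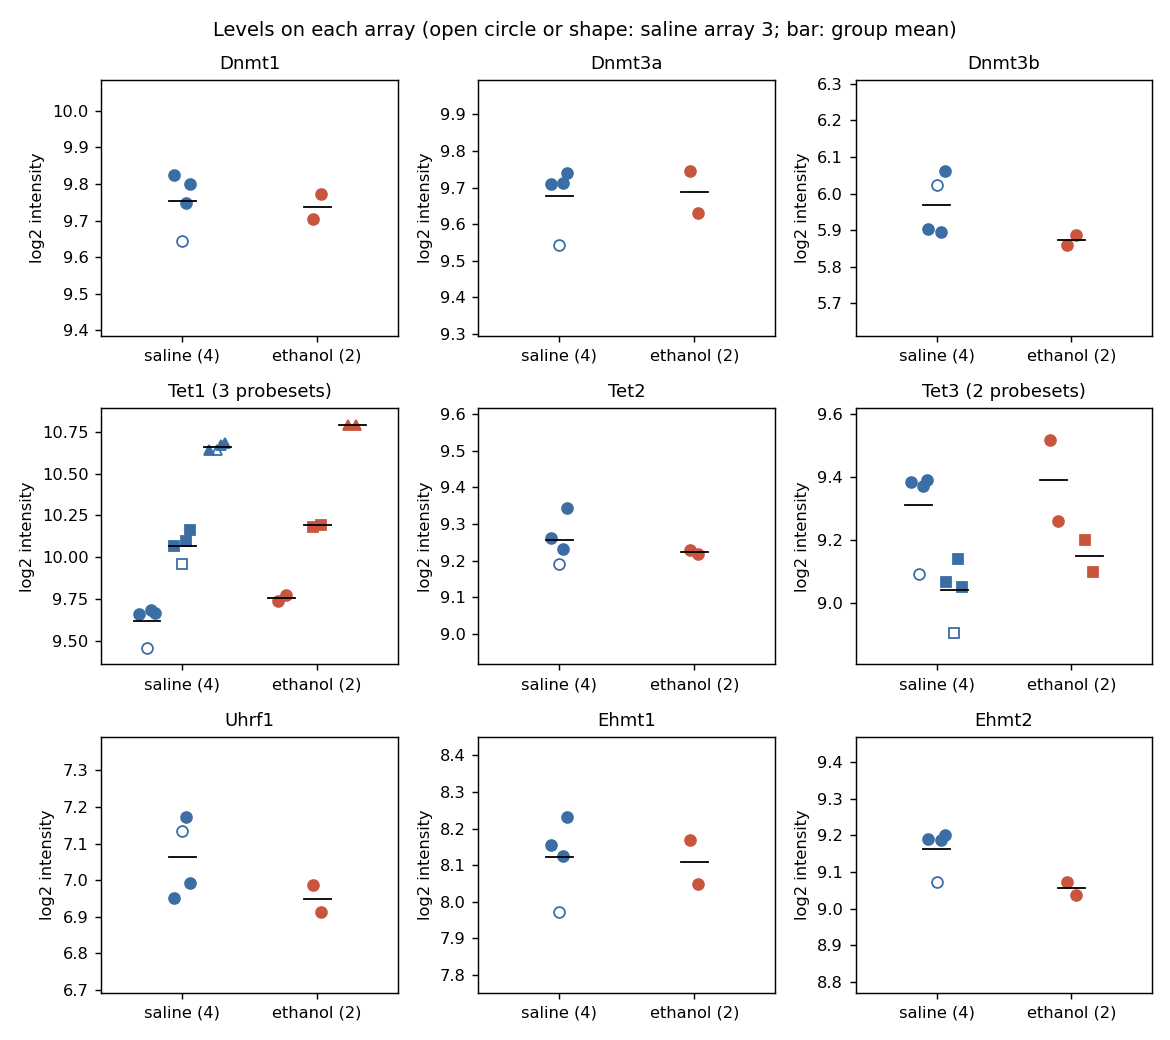
Log2 intensity (y axes, each with its own range) of every probeset of the 9 genes on the 4 saline arrays (blue) and 2 ethanol arrays (red); bars are group means, open symbols mark saline array 3, and different shapes are different probesets of a gene. For each of the 3 Tet1 probesets both red points lie above all blue points, whereas the groups overlap for Dnmt1, Dnmt3a, Tet2, Tet3, Uhrf1 and Ehmt1.

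The Tet1 promoter is shown as that of the member with the largest difference, at chr10:62887275-62887574 on the minus strand of GRCm38.p6 (RefSeq), written on the gene's strand with matches in capitals.
Tet1: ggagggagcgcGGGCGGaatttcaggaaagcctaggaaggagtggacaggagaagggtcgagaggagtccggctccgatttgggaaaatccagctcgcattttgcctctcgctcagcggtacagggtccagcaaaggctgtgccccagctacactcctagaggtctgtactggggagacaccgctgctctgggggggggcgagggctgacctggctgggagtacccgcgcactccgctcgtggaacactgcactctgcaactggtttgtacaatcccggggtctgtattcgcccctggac
Of the elements spelled out above, the window held the GC box GGGCGG alone, at position -239 from the start, an element found in 35.7% of all promoters. It had 17 CpG sites, against a median of 7 over the 32851 promoters, and 68.6% of promoters had fewer. Among the members the Tet2 window was the richest, with 57 CpG sites, and 99.8% of promoters had fewer.

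Tet2, the family member without a CXXC domain of its own, had 9.26, 9.19, 9.23 and 9.34 on saline arrays 1, 3, 5 and 6, and 9.23 and 9.22 on ethanol arrays 2 and 4. The ethanol values lay inside the saline range, below saline arrays 1, 5 and 6 and above saline array 3. The change was -0.034 ± 0.063 (SE, limma adjusted p = 0.872). Without saline array 3 it was -0.056 ± 0.055 (0.688), and both ethanol arrays then lay below the saline arrays by a gap of 0.0038. The share of tested genes with both ethanol arrays below all saline arrays is 23.8% without that array.

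Tet3, the oxidase of the zygote that is also expressed in neurons, had the widest range over the arrays among the members, 0.427. Its representing probeset (10545682) had 9.38, 9.09, 9.37 and 9.39 on saline arrays 1, 3, 5 and 6, and 9.52 and 9.26 on ethanol arrays 2 and 4. Ethanol array 2 was the highest of the 6 and ethanol array 4 lay below saline arrays 1, 5 and 6, so the ethanol arrays fell on opposite sides of them and differed by 0.26. The change was 0.080 ± 0.096 (SE, limma adjusted p = 0.784) and 0.0072 ± 0.074 (0.974) without saline array 3. Probeset 10545692 had 9.06, 8.90, 9.14 and 9.05 on the saline arrays and 9.20 and 9.10 on the ethanol arrays, with a change of 0.11 ± 0.073 (limma adjusted p = 0.589 in the fit of all probesets), or 0.065 ± 0.058 (0.667) without saline array 3. The representing probeset had a saline SD of 0.15 with saline array 3 and of 0.0099 without it.

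Ehmt2, which encodes G9a, was lower with ethanol by 0.11 on the log2 scale, a value that did not pass. Saline arrays 1, 3, 5 and 6 had 9.19, 9.07, 9.19 and 9.20, and ethanol arrays 2 and 4 had 9.07 and 9.04. Saline array 3 lay beside ethanol array 2, with a gap of 0.00051 between them, while the other saline arrays lay at least 0.11 above both ethanol arrays. The means were 9.16 ± 0.060 (SD, n = 4) and 9.06 ± 0.024 (SD, n = 2), with a change of -0.11 ± 0.062 (SE, limma adjusted p = 0.518). The unadjusted p in limma was 0.109. Without saline array 3 the change was -0.14 ± 0.050 (limma adjusted p = 0.271), or 9.06% lower, and the unadjusted p was 0.0225. In that fit Tet1 and Ehmt2, 2 of the 9 members, had an unadjusted p under 0.05, where 13.8% of tested genes had, and none of the members passed, where 0.0936% did. The groups then did not overlap for 4 members, Tet1, Dnmt3b, Tet2 and Ehmt2, where this held for 31.9% of tested genes.

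The promoter of Ehmt2 is shown as that of the member whose unadjusted p fell under 0.05 when saline array 3 was left out. It is the first of 2 windows listed, at chr17:34898224-34898523 on the plus strand of GRCm38.p6 (RefSeq), with matches in capitals.
Ehmt2: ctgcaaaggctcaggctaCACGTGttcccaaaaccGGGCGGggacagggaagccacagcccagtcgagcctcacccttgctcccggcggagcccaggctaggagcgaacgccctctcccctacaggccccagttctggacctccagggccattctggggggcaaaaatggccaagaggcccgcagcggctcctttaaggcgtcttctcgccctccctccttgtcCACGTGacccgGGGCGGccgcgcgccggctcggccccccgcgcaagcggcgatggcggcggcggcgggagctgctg
The window held the E-box CACGTG 2 times, at positions -232 and -26 from the start, and the GC box GGGCGG 2 times. CACGTG was found in 7.15% of all promoters, and the other Ehmt2 window held it too. A match is a description of these letters and not of binding by any factor.

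Ehmt1, which encodes GLP, the partner of G9a, had 8.16, 7.97, 8.13 and 8.23 on saline arrays 1, 3, 5 and 6, and 8.17 and 8.05 on ethanol arrays 2 and 4. Ethanol array 2 lay among saline arrays 1, 5 and 6, ethanol array 4 lay below them, and saline array 3 was the lowest. The change was -0.012 ± 0.076 (SE, limma adjusted p = 0.968) and -0.062 ± 0.060 (0.684) without saline array 3. The unequal changes of Ehmt1 and Ehmt2 were not tested against each other.

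Saline array 3 was the lowest saline array on 10 of the 12 member probesets, where 51.9% of all probesets tested had it lowest, and its median deviation from the other saline arrays was -0.15 over the members. The deviation was -0.29 for Tet3, -0.20 for Ehmt1, -0.18 for Dnmt3a, -0.15 for Dnmt1 and -0.12 for Ehmt2. It was -0.026 for the representing probeset of Tet1, and Dnmt3b and Uhrf1 were higher on that array by 0.072 and 0.095. Dnmt3a, Tet3 and Ehmt1 were thus low on saline array 3, and they were also lower on ethanol array 4 than on ethanol array 2, with differences of -0.12, -0.26 and -0.12.

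**Figure D3:**
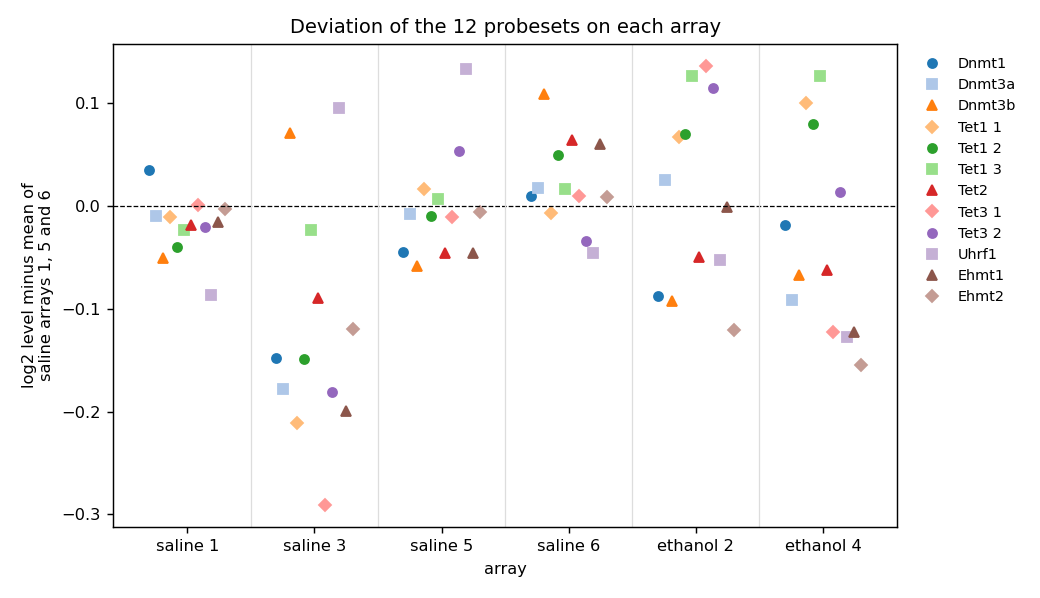
Log2 level of the 12 probesets of the 9 genes on each array (x axis), given as the difference from the mean of saline arrays 1, 5 and 6 (y axis). On saline array 3 most probesets lie below 0, with Tet3 lowest at -0.29, while Dnmt3b and Uhrf1 lie above it, and on both ethanol arrays the Tet1 probesets lie above 0 and Ehmt2 below it.

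As a description over the 6 arrays, the levels of Dnmt3a and Tet3 correlated with r = 0.96, those of Dnmt3a and Ehmt1 with r = 0.95, and those of Tet3 and Ehmt1 with r = 0.87. Tet2 and Ehmt1 had r = 0.84, and these were the 4 of 36 pairs above 0.8. The lowest was that of Tet1 and Ehmt2, with r = -0.65. Without saline array 3 these 5 values were 0.88, 0.90, 0.66, 0.82 and -0.97. The points share arrays, pools and treatment, and the median over all pairs was 0.26, or 0.17 without saline array 3. The tested gene whose levels were most like those of Tet1 was Lbr (r = 0.997), which encodes the lamin B receptor of the nuclear envelope, with a change of 0.27. For Ehmt2 it was Smyd5 (r = 0.998, change -0.16), a SET- and MYND-domain gene. For the others it was Prrt1 (Dnmt1), Garem1 (Dnmt3a), Rbm25 (Dnmt3b), Ankrd6 (Tet2), Plxnb2 (Tet3), Nectin4 (Uhrf1) and Rps25 (Ehmt1), with r of 0.990 to 0.9995. These genes were picked for the highest r among all 14954 tested genes, over only 6 arrays. Each member had between 29 and 141 tested genes with r above 0.95.

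The surrounding pathway was read from lists of related genes. Among readers of methyl-CpG and cofactors of DNA methylation, 17 of 20 listed genes were tested and none passed in limma. An unadjusted p under 0.05 was reached by 2 genes, both lower, with and without saline array 3. Of all tested genes 8.45% reached it as lower over all arrays, and 13.8% in either direction without saline array 3. These were Cdca7, which activates the remodeller Hells, at -0.15 ± 0.065 (SE, limma adjusted p = 0.366), and Usp7, a deubiquitinase that stabilises Dnmt1 and Uhrf1, at -0.13 ± 0.059 (0.393). Hells itself, which opens chromatin to DNA methylation, had -0.10 ± 0.058 (0.506). The changes of Cdca7, Usp7 and Hells without saline array 3 were -0.16, -0.12 and -0.090. Both ethanol arrays lay below all saline arrays for these 3 genes and above them for 3 others of the list, Mbd1, Trdmt1 and Zbtb38. Over all tested genes these shares were 15.0% and 7.68%. The changes of Mbd1, Trdmt1 and Zbtb38 were 0.089, 0.063 and 0.056, or 0.071, 0.053 and 0.057 without saline array 3. The list's median was 0.010.

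Genes of demethylation repair and partners of the Tet enzymes (14 of 16 tested) had none passing in limma, and 2 that reached an unadjusted p under 0.05, both higher, where 3.85% of tested genes did so as higher. Gadd45b, an activity-induced gene linked to active demethylation, had mean levels of 6.82 ± 0.045 (SD, n = 4) with saline and 7.03 ± 0.10 (SD, n = 2) with ethanol, a change of 0.21 ± 0.064 (SE, limma adjusted p = 0.222). Neil3, a DNA glycosylase, had 0.19 ± 0.063 (0.248), and Idh3a, a subunit of a mitochondrial isocitrate dehydrogenase that makes the co-substrate of the Tet enzymes, had -0.13 ± 0.063 (0.423). Both ethanol arrays lay above all saline arrays for Gadd45b and Neil3, where this held for 7.68% of tested genes. They lay below all saline arrays for Idh3a and the glycosylase gene Smug1, where this held for 15.0%. Smug1, near background, had -0.11, or -0.12 without saline array 3. The changes of Gadd45b, Neil3 and Idh3a without saline array 3 were 0.19, 0.18 and -0.11. In that fit 2 further genes reached an unadjusted p under 0.05, both lower, so that the list had 2 in each direction. They were Gadd45a, at -0.13 (limma adjusted p = 0.323), and the repair endonuclease gene Apex1, at -0.13 (0.343), against -0.098 and -0.091 over all arrays. The list's median was -0.029.

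In the metabolism of the methyl donor (16 of 22 tested), none passed in limma. An unadjusted p under 0.05 was reached by 1 gene in each direction, where 3.85% of tested genes did so as higher and 8.45% as lower. Mthfd2, a mitochondrial folate enzyme, had -0.18 ± 0.069 (SE, limma adjusted p = 0.309). Adk, the adenosine kinase that keeps the methylation cycle from stalling, had 0.18 ± 0.073 (0.349), and the folate transporter gene Slc46a1 had 0.15 ± 0.074 (0.450). Leaving out saline array 3 gave -0.18, 0.13 and 0.098, and the first 2 still had an unadjusted p under 0.05. The list's median was 0.033.

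Other H3K9 methyltransferases, partners of G9a and the HP1 proteins that bind the mark (16 of 19 tested) had none passing in limma. An unadjusted p under 0.05 was reached by 1 gene, as higher, where 3.85% of tested genes reached it as higher. This was Atf7ip, the cofactor of the methyltransferase Setdb1, at 0.14 ± 0.060 (SE, limma adjusted p = 0.376). Setdb1 itself had -0.12 ± 0.064 (0.502) and Cbx5, which encodes HP1 alpha, -0.12 ± 0.058 (0.440). The changes of Atf7ip, Setdb1 and Cbx5 without saline array 3 were 0.13, -0.13 and -0.12, and Cbx5 then also had an unadjusted p under 0.05, of 0.0453. Of the H3K9 demethylases (11 of 11 tested), none passed in limma and 1 was higher at an unadjusted p under 0.05, where 3.85% of tested genes were. This was Kdm7a, with 0.18 ± 0.077 (limma adjusted p = 0.381). Its groups overlapped, since saline array 5 lay above ethanol array 4, and without saline array 3 its change was 0.15 with an unadjusted p of 0.0766, which left the list with none under 0.05. Kdm3b and Kdm4d, the latter near background, had 0.062 ± 0.066 (0.749) and -0.058 ± 0.068 (0.779), or 0.027 and -0.058 without saline array 3. The medians of these lists were 0.0088 and 0.013. Without saline array 3 the medians of the 5 lists, in the order given, were -0.055, -0.055, 0.016, -0.019 and -0.015, beside -0.032 for all tested genes.

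**Figure D4:**
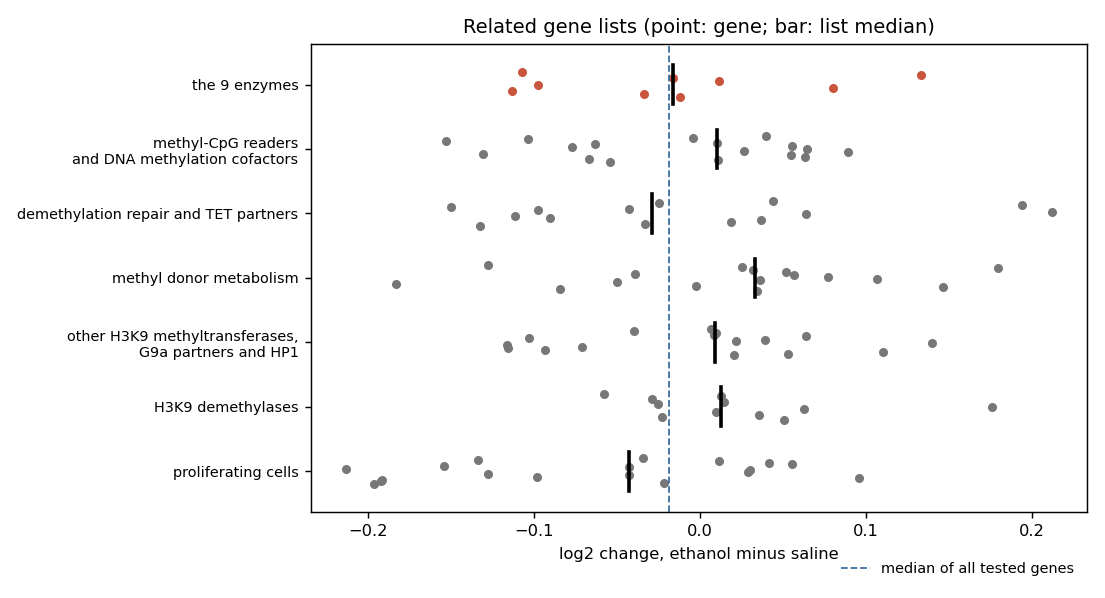
Log2 change with ethanol (x axis) of each tested gene in the lists of related genes and in the markers of proliferating cells (rows), with the 9 enzymes in red; black bars are list medians and the dashed line is the median of all tested genes. The medians of the lists lie between -0.043 and 0.033, and 12 of 18 proliferation markers lie below 0.

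When each array was left out in turn, the change of Tet1 on its representing probeset (10369702) stayed between 0.13 and 0.14. On probesets 10369688 and 10369690 it fell from 0.14 to 0.084 and from 0.11 to 0.077 without saline array 3. The change of Ehmt2 stayed between -0.14 and -0.090. The unadjusted p of Tet1 in limma was 0.0730, 0.0318, 0.0561 and 0.0589 without saline arrays 1, 3, 5 and 6, and 0.0994 and 0.117 without ethanol arrays 2 and 4. Its p thus stayed under 0.05 only when saline array 3 was the one left out. Dnmt1, Dnmt3a, Tet3 and Ehmt1 had changes on both sides of 0 over these fits. Tet3 went from -0.050 without ethanol array 2 to 0.21 without ethanol array 4. No member passed in limma under any of the 14 other settings of the gene fit, with at most 2 members at an unadjusted p under 0.05 in each.

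**Figure D5:**
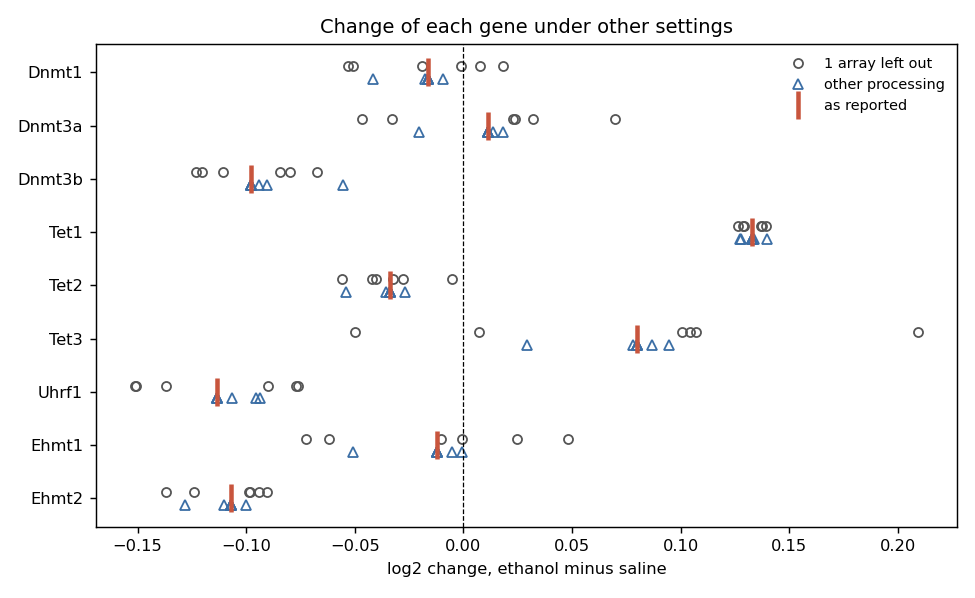
Log2 change with ethanol (x axis) of each of the 9 genes (y axis) as reported (red bars), with each of the 6 arrays left out in turn (open circles) and under the other processing settings (open triangles). Each gene is shown by its representing probeset, except in the setting of probeset means. The values of Tet1 lie close together near 0.13 and those of Ehmt2 between -0.14 and -0.090, while those of Tet3 range from -0.050 to 0.21.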

How the data were processed

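Whole-brain RNA of 6 pools was hybridised to Affymetrix whole-transcript arrays, from 200 ng of RNA per array, per the labels' protocols. Values for 35556 probesets were deposited by the authors after processing in Partek 6.6, per the submitters' processing notes. The scale was read as log2, because the deposited numbers lie between 4.10 and 14.9 and no log base is named. How background, normalization and summarisation were handled is not stated in the labels, and the numbers were not rescaled.

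The platform annotation paired 21789 probesets with 1 gene symbol, 1621 with several and left 12146 unnamed here. Symbols were updated through gene IDs for 21698. Each of 19938 genes was represented by its probeset of highest mean, the dimmest 25% (4984 genes, up to 5.55) were left out, and 14954 genes were fitted with limma 3.58.1 (lmFit, eBayes; R 4.3.3), treatment being the only term, with two-sided p-values and Benjamini-Hochberg adjustment. A further fit took all 16342 single-gene probesets that were not dim. The script was tested on simulated data. The groups have no array number in common, and a pair term was not possible. Members, lists and tests were chosen with earlier results of these data known. Genes outside the members were named by a rule: up to 3 of each pathway list by unadjusted p, and the gene most like each member. Mbd1, Trdmt1, Zbtb38, Smug1, Gadd45a, Apex1, Gh, Cga, Lhb and the proliferation markers fall outside it and were named after their values were seen. Listed genes that were dim, shared a probeset or had no match were not analysed here. Promoters of all 9 members were matched by symbol in the RefSeq table. Alternatives were other filters, probeset means, centring, quantile normalization, other variance models, array weights and leaving out each array.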

Additional observations from a re-analysis of the deposited data

Results flagged for a closer look

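On 4 of the 12 member probesets, saline array 3 lay so far from the other 3 saline arrays that its gap, divided by the range of the group, exceeded Dixon's critical value for groups of that size. It had 9.54 for Dnmt3a (ratio 0.858), 9.46 for Tet1 on probeset 10369688 (0.881), 9.09 for Tet3 on probeset 10545682 (0.934) and 9.07 for Ehmt2 (0.894), and each was the lowest saline value. Chance flags about 1 in 20 such groups. Of all 16342 probesets tested 6.27% were flagged, with any of the 4 saline arrays as the outlying one. The share flagged through saline array 3 alone was not computed. The probesets share the array, so these are not independent. The cause was not tested.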

How the results depend on the processing

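The count of 0 members passing in limma held under all 14 other settings of the gene fit, and of 133 values of single members under an alternative none passed and 8 changed sign. Dnmt3a became -0.021 with array weights. With 1 array left out in turn, Dnmt1 ranged from -0.053 to 0.018, Dnmt3a from -0.047 to 0.070, Tet3 from -0.050 to 0.21 and Ehmt1 from -0.072 to 0.048. Members at an unadjusted p under 0.05, 1 as reported, were 0 with probeset means, where that of Tet1 was 0.0630, 2 after quantile normalization, 2 with array weights, and 0 to 2 with 1 array left out. Members whose groups did not overlap, 3 as reported, were 2 with median centring, quantile normalization or the dimmest 50% left out, and 3 to 5 with 1 array left out. They were 4 and 5 without ethanol arrays 2 and 4, where 48.4% and 46.3% of tested genes did not overlap and the lone ethanol array is assumed to vary like the saline arrays. Genes passing over the whole array, 12 as reported, were 52 with the dimmest 50% left out, 23 after quantile normalization, 0 in limma without a variance prior (1535 at an unadjusted p under 0.05), 43 with an intensity trend, 56 with array weights and 4 to 16 with 1 array left out. The cause of these differences was not tested. No paired analysis was possible because the groups share no replicate number. Dnmt3b, near background, could not be fitted with the dimmest 50% left out, and neither could Uhrf1.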
